A study of Mus musculus with 2 samples.

Results

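The genes described here are 21 precursors of neuropeptides, 5 granins, 4 processing enzymes and 2 proteins that attend those enzymes, in the midbrain of mouse embryos. They were chosen by name as 32 genes, and all 32 were found among the 43346 Ensembl genes measured. Total RNA was sequenced from midbrain tissue of strain B6NCrl at embryonic day 16.5, in 1 group of 2 biological replicates. Each replicate was a pool of healthy embryos of both sexes and both carry 1 donor identifier. For replicate 2 the labels count 37 embryos, and for replicate 1 they give no count. No treatment or mutation was applied and no second condition exists, so levels are described and differences between the libraries have no p-value. A value with ± gives the mean and its SD across the pools (n = 2), and this spread covers only 2 pools.

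Neuropeptides are made as long precursors that enter the secretory pathway and are cut into short signalling peptides inside dense-core vesicles. The proprotein convertases encoded by Pcsk1 and Pcsk2 cut after pairs of basic residues, carboxypeptidase E (Cpe) trims the basic residues left at the end, and the amidating enzyme Pam turns a terminal glycine into the amide that many peptides need for activity. Granins are acidic proteins packed into the same vesicles, and some are themselves cut into peptides. In the midbrain, peptides of this kind are made by subsets of tectal, tegmental and dopamine neurons beside their fast transmitters.

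Replicate 1 held 31830355 expected counts, and replicate 2 held 36576263. The members held 0.237% and 0.270% of the counts on Ensembl genes. Abundance is given in TPM (a transcript's length-corrected share of the library, on a fixed total), so levels of different genes can be compared. The label of the tissue was checked against 7 midbrain genes, all of which reached 1 TPM in each library, with Gata3 highest at 74.3 ± 4.07 and En1 and Pax7 lowest at 5.67 ± 0.955 and 2.83 ± 1.23. Of 6 hypothalamic genes 4 were detected, the highest being Fezf1 at 7.83 in replicate 1 and 4.03 in replicate 2, above Pax7 in both. All 5 genes listed for telencephalic interneurons were detected, with Dlx1 at 46.8 and 26.3 and Dlx5 at 17.3 and 7.99, within the range of the midbrain genes. Whether these 5 genes mark telencephalic cells alone was not tested. None of 6 pituitary genes reached 1 TPM in both libraries, with Prl and Lhb at 0 counts. Gh had 0 counts in replicate 1 and 17 counts, or 1.03 TPM, in replicate 2. In tissue RNA, fewer cells of a type and less RNA per cell cannot be told apart.

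The median precursor lay below the median of the granins, enzymes and helpers, but the groups overlapped widely. At 1 TPM or more in both libraries, 27 of the 32 genes were detected, against 62.1% of protein-coding genes. These were all 11 granins, enzymes and helpers and 16 of the 21 precursors. The median precursor was at 12.1 ± 1.52 TPM, against 99.8 ± 5.23 TPM for the 11 others and 5.23 ± 0.0283 TPM for all protein-coding genes. The medians of precursors and of the others differed by log2 -3.05 ± 0.258, that is -3.23 in replicate 1 and -2.87 in replicate 2. Summed, the precursors came to 704 ± 59.9 TPM and the others to 1860.4 ± 145 TPM, with Cpe alone giving 43.1% ± 0.685 of the others' sum. The gap did not hold for single genes. By mean level Sst exceeded 10 of the 11 others, and the 4 processing enzymes alone had a median of 29.3 ± 0.301 TPM. Expected counts, which grow with transcript length, put the medians at log2 -4.75, so the size of the gap depends on the correction for length.

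**Figure D1:**
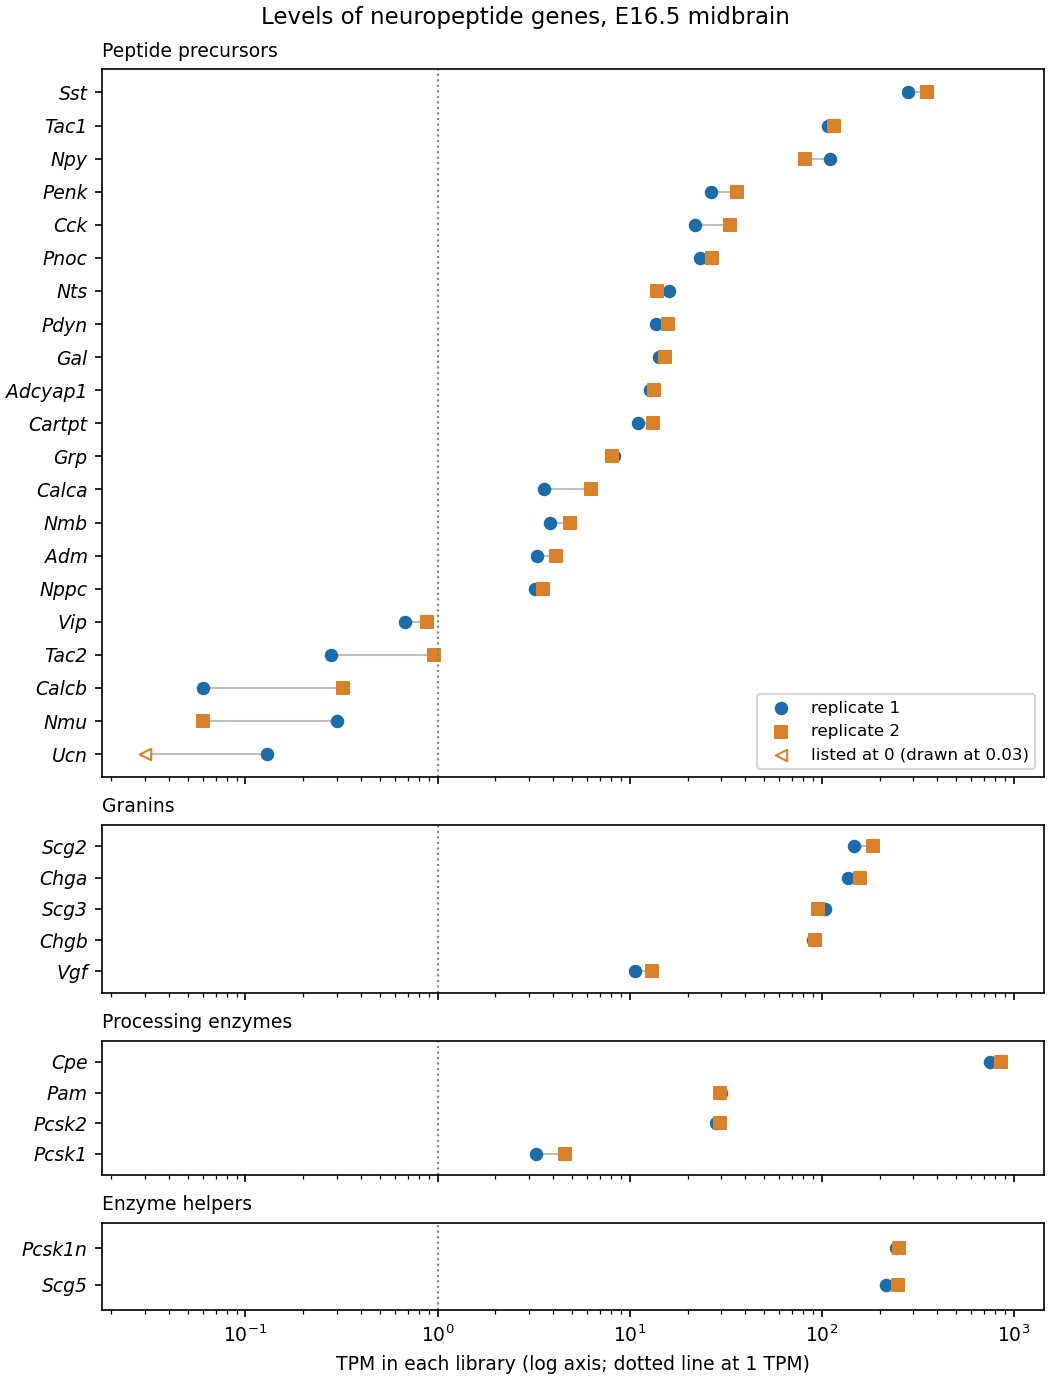
Levels of the 32 genes in TPM on a log axis, grouped by role, with circles for replicate 1 and squares for replicate 2 and the dotted line at 1 TPM. Cpe is highest at 803 TPM on average and Sst leads the precursors at 317 TPM, while Vip, Tac2, Calcb, Nmu and Ucn lie below 1 TPM in both libraries.

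Among the precursors 3 genes held most of the RNA. Sst encodes somatostatin, an inhibitory peptide of GABA neurons (ENSMUSG00000004366.3, chromosome 16 from 23889573 to 23890958 of GRCm38). It had 282 TPM in replicate 1 and 353 TPM in replicate 2, from 2606 and 3800 counts. Tac1, the precursor of substance P and neurokinin A (chromosome 6 from 7554879 to 7565834), had 107 TPM in replicate 1 and 115 TPM in replicate 2. Npy, the precursor of neuropeptide Y (chromosome 6 from 49822710 to 49829507), had 110 TPM in replicate 1 and 81.9 TPM in replicate 2. Sst was above Tac1 in both libraries, by 2.63-fold and 3.06-fold, whereas the ranges of Tac1 and Npy overlapped. Together Sst, Tac1 and Npy gave 74.5% ± 1.28 of the precursor TPM, and Sst alone 44.9% ± 3.29.

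The next precursors by level included the 3 genes of the opioid family that are among the 32. Penk, the precursor of the enkephalins, had 26.4 TPM in replicate 1 and 36.4 TPM in replicate 2. Pnoc, the precursor of nociceptin, had 23.3 and 26.7 TPM, and Pdyn, the precursor of the dynorphins, 13.6 and 15.9 TPM. Penk was 1.94-fold above Pdyn in replicate 1 and 2.29-fold in replicate 2. Together Penk, Pnoc and Pdyn made up 10.1% ± 0.713 of the precursor TPM. Pomc, an opioid gene outside the 32, had 6.13 TPM in replicate 1 and 4.24 TPM in replicate 2. Cck, the precursor of cholecystokinin, which some midbrain dopamine neurons co-release, had 21.8 TPM in replicate 1 and 33.4 TPM in replicate 2. Cck was lower in replicate 1, and its values there and in replicate 2 lay on either side of Pnoc's 2 values. Nts (neurotensin) was at 14.98 ± 1.46, Gal (galanin) at 14.7 ± 0.721, Adcyap1 (the peptide PACAP, an activator of adenylyl cyclase) at 13.0 ± 0.389 and Cartpt (the CART peptides) at 12.1 ± 1.52 TPM.

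Low but detected precursors were Grp, the precursor of gastrin-releasing peptide, at 8.33 and 8.06 TPM in replicates 1 and 2, Calca at 3.59 and 6.28, Nmb (neuromedin B) at 3.87 and 4.90, Adm (adrenomedullin, a vascular peptide) at 3.29 and 4.12, and Nppc (C-type natriuretic peptide) at 3.21 and 3.54. Counts behind these values ranged from 40.9 for Nmb in replicate 1 to 134 for Grp in replicate 2. Exons of Nmb overlap those of Sec11a on the same strand in the annotation. Sec11a had 138 and 135 TPM, so the level of Nmb depends on how reads were divided between the genes. Endothelial markers, which bear on Adm, were at 88.5 and 86.6 TPM for Cldn5, 13.2 and 11.8 for Pecam1, and 9.68 and 7.95 for Cdh5. The part of vessels in the Adm value was not tested.

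The 5 precursors not detected rested on few reads. Vip, the vasoactive intestinal peptide gene, had 18 counts in replicate 1 and 27 in replicate 2, or 0.680 and 0.880 TPM, with 95% counting intervals of 0.404 to 1.08 and 0.578 to 1.28 TPM. Tac2, the neurokinin B precursor, had 3 and 12 counts, or 0.280 and 0.960 TPM. The interval of Tac2 ran from 0.0576 to 0.816 TPM in replicate 1 and from 0.495 to 1.67 TPM in replicate 2, so the intervals overlapped. Calcb, which encodes the second form of CGRP (calcitonin gene-related peptide), had 1 and 6 counts, and Nmu, the neuromedin U precursor, had 4 and 1. Ucn, the urocortin precursor, had 1 count in replicate 1 and 0 in replicate 2, where the 95% counting interval reached 0.422 TPM. Counting intervals cover counting error only.

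Granins were uniformly high except for Vgf. Scg2, the secretogranin cut into secretoneurin (chromosome 1 from 79434669 to 79440120), had 147 TPM in replicate 1 and 184 TPM in replicate 2. Chga, chromogranin A (chromosome 12 from 102554969 to 102565028), had 136 and 158 TPM. Scg3, which helps sort other granins into the vesicle, had 103 and 96.1 TPM, and Chgb, chromogranin B, 89.9 and 92.0 TPM. Vgf, a granin induced by neurotrophins and activity and cut into several peptides, was the lowest at 10.7 and 13.0 TPM. Scg2 stood 13.8-fold above Vgf in replicate 1 and 14.1-fold in replicate 2.

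The convertases were unequal. Pcsk2 (chromosome 2 from 143546156 to 143816285) had 28.3 TPM in replicate 1 and 29.4 TPM in replicate 2, while Pcsk1 (chromosome 13 from 75089826 to 75134861) had 3.27 and 4.58 TPM from 154 and 253 counts. Pcsk2 was therefore 8.65-fold above Pcsk1 in replicate 1 and 6.41-fold in replicate 2. Their attendant proteins were both more abundant than the enzymes. Scg5, a chaperone that Pcsk2 needs for maturation, had 216 and 248 TPM, which is 7.62-fold and 8.43-fold above Pcsk2. Pcsk1n encodes proSAAS, an inhibitor of the Pcsk1 enzyme, and lies on chromosome X from 7919822 to 7924410. It had 244 and 252 TPM, 74.6-fold above Pcsk1 in replicate 1 and 55.1-fold in replicate 2. These folds compare RNA and say nothing of the amounts of protein.

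The enzymes that act after the convertases differed as widely. Cpe (chromosome 8 from 64592542 to 64693054) had 750 TPM in replicate 1 and 856 TPM in replicate 2, a level above 99.5% of protein-coding genes. Pam (chromosome 1 from 97795114 to 98095646), which amidates peptides such as substance P and neuropeptide Y, had 29.9 and 29.7 TPM. Cpe exceeded Pam by 25.04-fold in replicate 1 and 28.8-fold in replicate 2. Pam and Pcsk2 were thus at almost the same level, and both lay below the granins other than Vgf. Antisense RNA overlaps Pcsk2: Pcsk2os1 had 3.57 and 3.53 TPM, and whether reads were counted by strand is not given in the sources used here. Pam shares exon sequence with B230216N24Rik on the same strand, which had 26.2 and 23.4 TPM.

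Transcript forms were read from the transcript tables, as percent of the TPM of each gene. Tac1 is the member with the best known splice forms. Its main coding forms carry the exon for substance P, while the exon for neurokinin A can be left out. Tac1-205 carries 7 exons (the beta form), Tac1-203 lacks exon 4 (gamma) and Tac1-201 lacks exon 6, which encodes neurokinin A (alpha). The exons that tell the forms apart are printed from the GENCODE M21 transcript of Tac1-205, in capitals, between the last and first 12 bases of their neighbours in lower case. Exon 4 has 45 bases and is at chr6:7557216-7557260, plus strand, and exon 6 has 54 bases and is at chr6:7559099-7559152.
Tac1 exon 4: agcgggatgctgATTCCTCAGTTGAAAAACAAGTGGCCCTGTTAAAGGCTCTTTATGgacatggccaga
Tac1 exon 6: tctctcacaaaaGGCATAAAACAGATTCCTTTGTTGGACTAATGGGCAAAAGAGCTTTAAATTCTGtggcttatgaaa

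The gamma form without exon 4 was the largest in both libraries, with 48.2% of Tac1 in replicate 1 and 43.7% in replicate 2. The full beta form had 32.7% and 30.6%, and the alpha form without exon 6 had 18.9% and 25.5%. Forms that keep the neurokinin A exon thus made up most of Tac1 in each library, and the order of the 3 forms was the same in both. The transcript models of Tac1-205, Tac1-203 and Tac1-201 are 1230, 691 and 980 bases long. They differ by more than exons 4 and 6, so the shares also depend on where the models start and end. The part of each in the shares was not tested.

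Calca gives rise to calcitonin or CGRP by a choice of the exon that follows exon 3. Calca-202 ends in an exon 4 that encodes calcitonin, and Calca-201 skips it and continues into the CGRP exons further along the gene. The last 15 bases of the shared exon 3 are printed in lower case and the first 30 bases of the exon joined to it in capitals, from the GENCODE M21 transcripts, minus strand of GRCm38. The capitals are at chr7:114633756-114633785 for calcitonin and at chr7:114632570-114632599 for CGRP.
Calca-202: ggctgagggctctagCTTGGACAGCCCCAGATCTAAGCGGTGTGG
Calca-201: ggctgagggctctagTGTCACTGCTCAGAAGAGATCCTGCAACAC

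The CGRP form held 83.5% of Calca in replicate 1 and 88.6% in replicate 2, against 16.5% and 11.4% for the calcitonin form. These shares rest on 49.5 and 107 estimated counts for CGRP and 8.46 and 11.9 for calcitonin. The deposited models of both transcripts differ in length from those of the later annotation release, at 992 against 994 bases for Calca-201 and 870 against 830 for Calca-202. The CGRP form is typical of neurons and the calcitonin form of thyroid C cells.

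**Figure D2:**
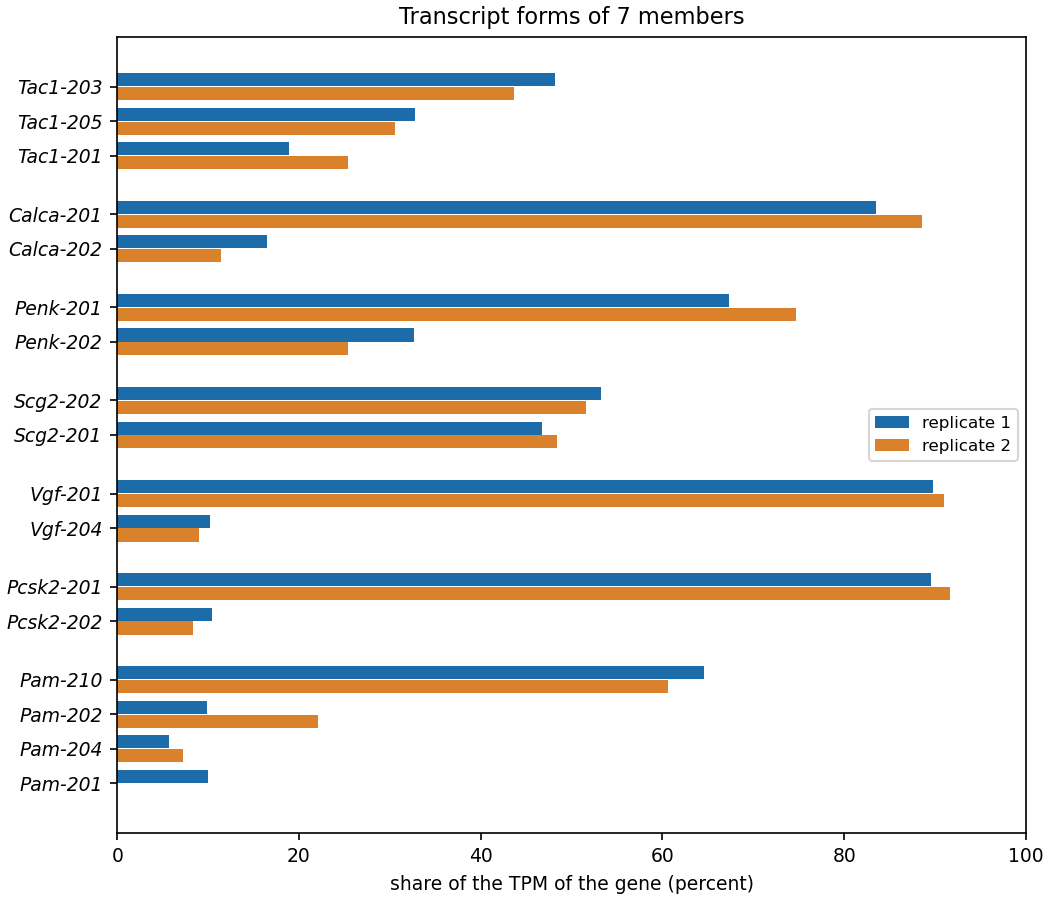
Share of each transcript in the TPM of its gene, in percent, for 7 members and the transcripts with a mean share of at least 5%, with a bar for each replicate. The leading form is the same in both libraries for each of the 7 genes, while Pam-201 and Pam-202 divide differently.

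In Pam the leading form was Pam-210, with 64.5% in replicate 1 and 60.6% in replicate 2. Pam-210 lacks an exon of 318 bases that Pam-201 and Pam-202 carry, and it starts inside their second exon. Pam-201 had 10.0% in replicate 1 and 0% in replicate 2, and Pam-202 had 9.87% and 22.2%. These forms share nearly all their sequence, and the data do not resolve how reads divide among them. Scg2 was divided almost evenly between Scg2-202, in which 1 more intron is removed, at 53.2% and 51.6%, and Scg2-201 at 46.8% and 48.4%. Penk-202, which starts upstream of the main first exon, had 32.7% of Penk in replicate 1 and 25.4% in replicate 2, against 67.3% and 74.7% for Penk-201. For Pcsk2, the coding Pcsk2-201 had 89.5% and 91.6%, and the non-coding Pcsk2-202, of 2 exons, had the remaining 10.5% and 8.37%. Vgf-201 had 89.8% and 91.0% of Vgf, and 17 of the 32 genes had a single deposited transcript.

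Promoter sequence was searched for a feature that the choice of genes did not use. The cAMP response element TGACGTCA is the site of the factor CREB and was first described in the somatostatin promoter. Its match in Sst was therefore known beforehand, and the motif was not chosen independently of the members. Windows of 250 bases before to 50 bases after the RefSeq start (GRCm38) were found for 26 of the 32 genes, and not for Penk, Pnoc, Grp, Calcb, Vgf and Cpe. The motif reads the same on both strands. It occurred in the windows of 6 of the 26 genes (23.1%), against 2.03% of all 27025 genes with a window and 2.54% of the protein-coding ones. The 6 sites are printed below on the strand of the gene, as 30 bases with the motif in capitals.
Sst, chr16:23890874-23890903: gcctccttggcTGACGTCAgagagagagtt
Scg2, chr1:79440076-79440105: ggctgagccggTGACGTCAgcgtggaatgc
Chgb, chr2:132781559-132781588: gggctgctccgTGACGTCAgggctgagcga
Pcsk1, chr13:75089768-75089797: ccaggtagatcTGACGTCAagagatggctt
Cartpt, chr13:99900777-99900806: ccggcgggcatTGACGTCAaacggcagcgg
Ucn, chr5:31138921-31138950: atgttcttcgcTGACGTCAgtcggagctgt

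Measured from the first base of the motif, the sites lay 48 bases before the RefSeq start in Sst, 68 in Scg2, 72 in Chgb, 78 in Pcsk1, 112 in Cartpt and 44 in Ucn. These positions depend on the start used: the sites of Sst, Scg2, Chgb and Cartpt, 4 of the 6, lie inside the GENCODE M21 span of the gene, which begins further upstream. Levels of the genes with the motif ran from Sst at 317 ± 50.1 TPM and Scg2 at 166 ± 26.1 TPM to Ucn at 0.130 TPM in replicate 1 and 0 in replicate 2. A match is a description of the sequence and not evidence that a factor binds there.

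Receptor genes for these peptides ranged from below 1 TPM to the level of the granins. Of 40 genes for receptors and receptor partners that were measured, 25 were detected (62.5%, against 62.1% of protein-coding genes), 8 of them at 10 TPM or more in both libraries, and their median was 1.96 TPM in replicate 1 and 2.43 TPM in replicate 2. Oprl1, the nociceptin receptor, was the highest at 89.9 ± 3.56, above its ligand gene Pnoc at 24.99 ± 2.40 TPM. Adcyap1r1, the PACAP receptor, was at 45.0 ± 7.82, also above its ligand gene Adcyap1 at 13.0 ± 0.389 TPM. Ramp2, a partner that turns the receptor Calcrl into an adrenomedullin receptor, was at 69.1 ± 3.32, while Calcrl itself was at 7.24 ± 0.0849 TPM.

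The most abundant precursors showed the reverse relation. Sst at 317 ± 50.1 TPM was set against Sstr2 at 13.8 ± 1.22 and Sstr1 at 12.5 ± 0.820, the highest of its receptors. Tac1 was set against Tacr3 at 4.47 ± 1.27 and Tacr1, the substance P receptor, at 2.36 ± 0.0990, and Npy against Npy1r at 4.14 ± 1.17. The classical opioid receptors were low, with Oprk1 at 3.39 ± 0.799, Oprm1 at 2.06 ± 0.276 and Oprd1 below 1 in both libraries. For the undetected Nmu, the receptors Nmur1 and Nmur2 were also below 1 in both libraries, whereas for Ucn the receptor Crhr1 was at 7.32 ± 0.629 TPM. Crh, another ligand gene of Crhr1 and outside the members, had 3.45 TPM in replicate 1 and 5.96 TPM in replicate 2.

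**Figure D3:**
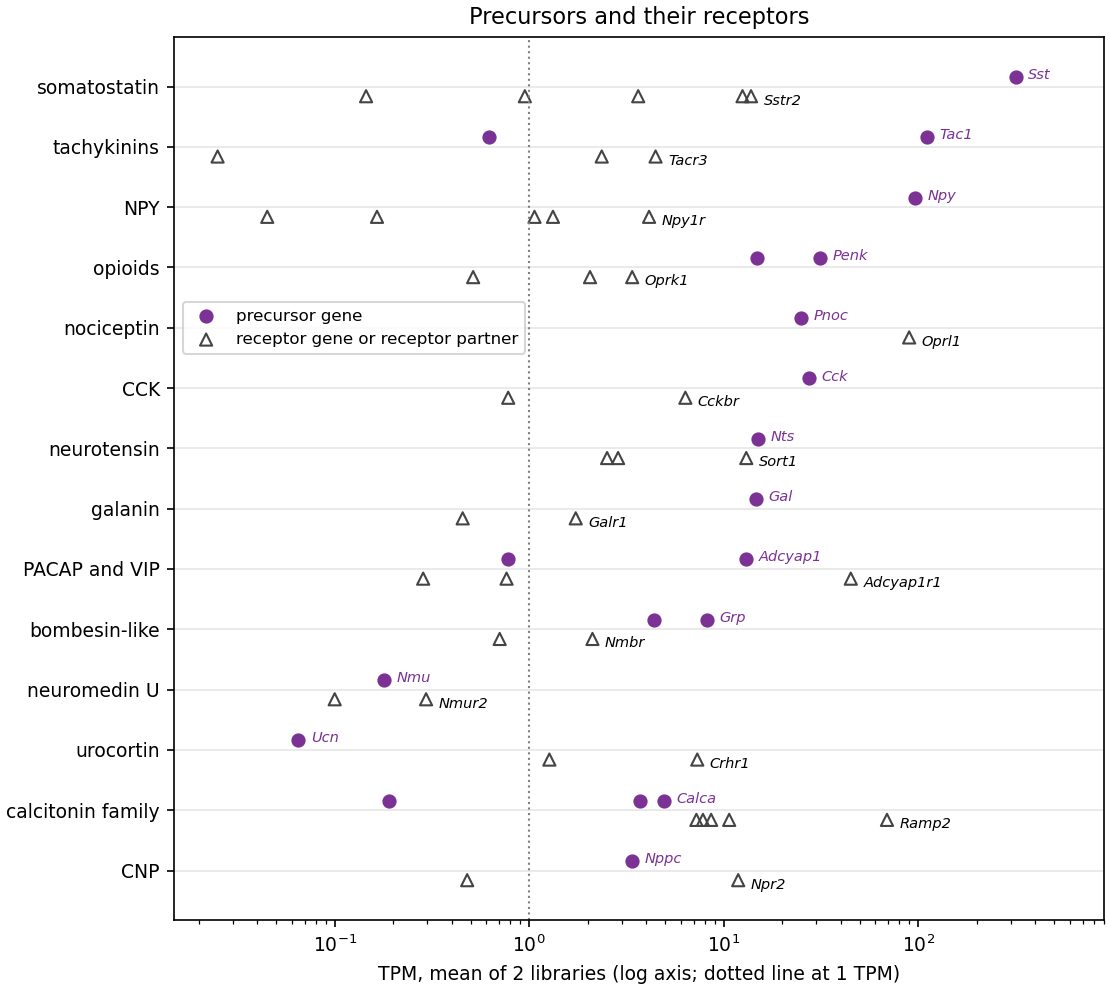
Mean TPM over the 2 libraries, on a log axis, for precursor genes (filled circles) and for receptor genes and partners (open triangles), by peptide system, with the highest of each named. Sst, Tac1 and Npy lie well above their receptors, and Oprl1, Adcyap1r1 and Ramp2 lie above the precursors of their systems.

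Other genes of the pathway were taken from lists named by role, and their detection is read against the 62.1% of protein-coding genes. All 10 genes of dense-core vesicles were detected, with Syt4 at 202 ± 20.0 and Rab3b at 151 ± 27.7 TPM highest, and Hid1 at 60.3 ± 3.34 TPM. Of 11 further maturation enzymes 9 were detected. The lysosomal protease Ctsl was at 102 ± 5.18, the glutaminyl cyclases Qpctl and Qpct at 23.2 ± 1.99 and 21.2 ± 0.806, and the convertase Pcsk7 at 14.3 ± 1.28 TPM, while Furin was at 3.39 ± 0.177. All 9 peptidases that break peptides down were detected, led by Prep at 83.5 ± 0.445 and Nln at 60.8 ± 3.33 TPM. Of 31 other peptide precursors 13 were detected. Avp, the vasopressin precursor, was at 64.6 ± 0.438 TPM, and Pmch, of melanin-concentrating hormone, was at 51.2 TPM in replicate 1 and 10.7 TPM in replicate 2.

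The libraries were compared by the ratio of scaled counts, replicate 1 over replicate 2, for genes with a mean count of at least 50. No member of the 26 that passed this minimum differed by 2-fold or more, where 0.645% of all genes did. At 1.5-fold or more there were 2, Calca and Cck, where 3.44% of all genes did. Most members were somewhat lower in replicate 1. Of the 26, 22 were lower in replicate 1 (21 by deposited TPM, where Pam was on the other side), and 51.9% of all genes were. The median was log2 -0.23, against -0.01 for all 14412 genes compared. It was -0.23 for the 15 precursors and -0.23 for the 11 granins, enzymes and helpers.

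The 3 widest differences were in precursors. Calca had 58 counts in replicate 1 and 119 in replicate 2, a log2 ratio of -0.85 with a counting interval from -1.33 to -0.39. Cck had 236 and 422 counts (log2 -0.65) and Penk 544 and 914 (log2 -0.57). Pcsk1, the lower convertase, was at log2 -0.53, Scg2 and Sst were both at -0.36, and Cpe was at -0.23. On the other side were 4 genes higher in replicate 1. Npy had 952 counts in replicate 1 and 825 in replicate 2, a log2 ratio of 0.39 with a counting interval from 0.25 to 0.53. Nts was at 0.16, Scg3 at 0.07 and Grp at 0.06, and the counting intervals of Nts and Grp included 0. So did those of 6 of the 22 genes on the lower side, namely Gal, Cartpt, Adcyap1, Adm, Nppc and Pam.

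**Figure D4:**
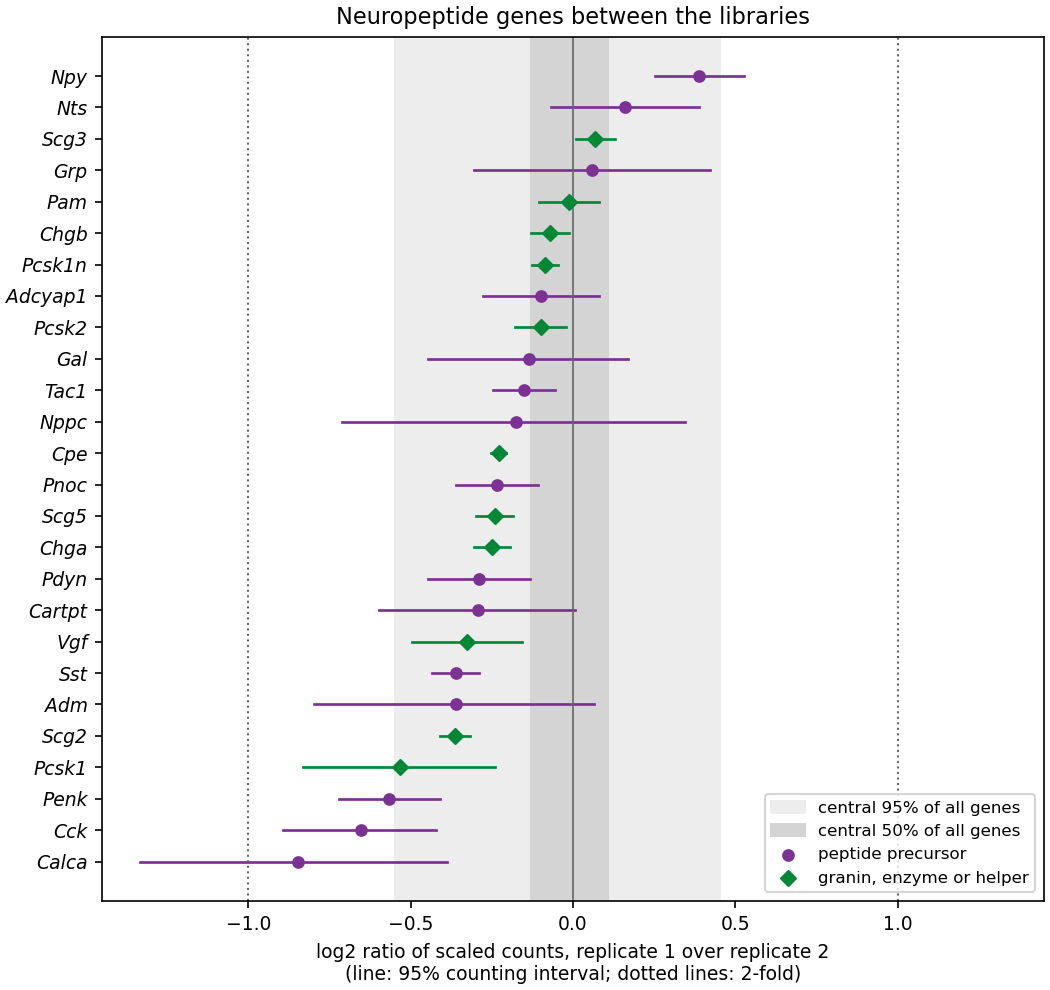
Log2 ratio of scaled counts, replicate 1 over replicate 2, for the 26 members with a mean count of at least 50, with 95% counting intervals, over bands for the central 50% and 95% of all genes compared. Of the 26, 22 lie left of 0 (21 by deposited TPM), and Calca at -0.85, Cck at -0.65 and Penk at -0.57 lie left of the band that holds 95% of all genes.

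Among members below the minimum, Tac2 had a ratio of scaled counts, replicate 1 over replicate 2, of 0.284 with a counting interval from 0.0514 to 1.05. For Nmu the ratio was 4.54 with an interval from 0.449 to 224, and for Calcb 0.189 with an interval from 0.00411 to 1.56. For Vip the ratio was 0.757 with an interval from 0.393 to 1.43, and for Nmb 0.789 with an interval from 0.516 to 1.20. All of these intervals include equality, and for Ucn, at 1 and 0 counts, no ratio is given.

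Markers of the tissue and of cell types differed between the libraries too. Of the 7 midbrain genes 6 were lower in replicate 1, with a median of log2 -0.26 and a summed level of 267 TPM in replicate 1 and 282 TPM in replicate 2. All 4 genes listed for astrocytes were lower in replicate 1, with a median of log2 -0.63. Their summed level was 235 TPM in replicate 1 and 336 TPM in replicate 2, of which Aqp4 gave 2.67 and 6.96 TPM. Whether these 4 genes mark astrocytes alone at this age was not tested. Of the 5 genes listed for telencephalic interneurons, the 4 that could be compared were higher in replicate 1, with a median of log2 0.98. The sum over the 5 was 80.8 TPM in replicate 1 and 42.5 TPM in replicate 2. The 4 comparable hypothalamic genes were higher in replicate 1 as well, at a median of log2 0.70 and sums over the 6 listed of 19.9 and 11.03 TPM. Neuronal genes were at a median of log2 -0.13, with 3 of 4 lower in replicate 1. Of the 3 endothelial genes 2 were higher in replicate 1, at a median of log2 0.14. Of the 7 sensory ganglion genes, which bear on Calca, 3 were detected, Scn10a was at 0.04 and 0.01 TPM, and the sums were 5.59 and 6.73 TPM. The part of tissue make-up and of these cell types in the differences of the peptide genes was not tested.

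Genes of related lists were compared in the same way. Of 27 receptor genes compared, 20 were lower in replicate 1 (74.1%, against 51.9% of all genes), with a median of log2 -0.12. Ramp1, the partner that makes Calcrl a CGRP receptor, was the 1 receptor gene past 2-fold, where 0.645% of all genes were, at 5.61 TPM in replicate 1 and 11.6 TPM in replicate 2 (log2 -1.09). Of the 10 dense-core vesicle genes 7 were lower in replicate 1 (70.0%, against the same 51.9%), at a median of log2 -0.17. Of the 7 other precursors compared 3 were lower in replicate 1 (42.9%). In that list 2 were past 2-fold (28.6%, against 0.645% of all genes), in opposite directions. Pmch was at log2 2.22. Oxt, the oxytocin precursor, was at log2 -3.94, with 0.790 TPM in replicate 1 and 12.7 TPM in replicate 2, from 6.41 and 120 counts.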

How the data were processed

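Total RNA longer than 200 nucleotides (10 ng per library) was sequenced from 2 pools, per the labels. Reads were aligned to mm10 and quantified against GENCODE release M4, per the deposited readme; the sources used here name no aligner or quantifier and no version, and do not say whether strand was used. Per the file headers, the deposited expected counts are estimated reads per gene or transcript without normalization, the deposited TPM values are corrected for effective length and scaled to 1 total per library (sums over the files include the spike-ins), and the deposited isoform percent is a share of the TPM of the gene. Posterior mean TPM was an alternative.

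Symbols, exons and transcript sequences came from GENCODE M21 on GRCm38, the assembly of mm10, joined by Ensembl identifier; all 32 members matched, while Galr3 and Kiss1 of the further lists were not measured under these symbols. Promoters came from RefSeq. A gene counted as detected when neither library had under 1 TPM. For ratios between libraries, 0.5 was added to each expected count and libraries were put on 1 scale with TMM (edgeR 4.0.16, counts rounded) or, as an alternative, size factors of DESeq2 1.42.0. No test was made, since 1 group of 2 libraries allows none. Intervals are exact Poisson or binomial at 95% on rounded counts and, since reads carry no molecular identifiers, cover counting error only.

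Members and lists were chosen with earlier results of these data known. All 32 members are named. Of the further lists the 4 highest detected genes could be named by rule. Beyond them, Furin, Oxt, Crh, Ramp1, Calcrl, Sstr1 and the lower receptors set against single ligands were named after their values were seen. Calculations ran in Python 3.11.15 (numpy 2.4.6, pandas 2.3.3, scipy 1.17.1, matplotlib 3.10.9) and R 4.3.3.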

Additional observations from a re-analysis of the deposited data

How the results depend on the processing

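Of 32 comparisons of a main result with an alternative, 28 stayed within 1.5 times for counts, or within 1 SD for values (over the replicates, and for ratios between libraries over the members). The exceptions were the median of the precursors with detected members only (14.2 TPM), the log2 ratio of the medians on expected counts without correction for length (-4.75), the number of members at 2-fold without a minimum count (4, namely Tac2, Nmu, Calcb and Ucn, which rest on 0 to 12 reads) and the number of receptor genes detected with a minimum of 5 TPM (13). Leaving out 1 of 2 libraries moves a mean by less than 1 SD whatever the values. For the medians and their ratio, the comparisons without 1 replicate therefore could not fail. Detected members ranged from 22 at 5 TPM to 28 at 0.5 TPM. The median log2 ratio between the libraries ranged from -0.24 to -0.19 over the alternatives, and none of the 104 alternative ratios of single members moved by as much as the SD over the members. That SD is the spread between genes and does not measure the error of a single ratio. DESeq2 size factors and total counts shift every ratio by 1 constant (log2 0.0014 and 0.0068), so their outcome was settled by the scale alone. By deposited TPM 21 of 26 members were lower in replicate 1, with Pam at log2 0.01 in place of -0.01. With posterior means, 6 of 32 levels and 8 of 15 leading transcript shares moved beyond the SD of the replicates. Ucn, at 0.185 TPM, and Calcb, at 0.505 TPM, stayed below 1. No paired analysis was possible because there is 1 group. With 2 libraries an SD rests on a single difference, and for the 6 members under a mean of 50 counts the counting error limits what can be compared.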
